A study of Homo sapiens with 112 samples.

Results

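The comparison described here set 4 VCaP libraries treated with 500 nM darolutamide plus 1 nM R1881 for 8 h against 10 VCaP libraries treated with 1 nM R1881 alone for 8 h. These 14 libraries were chosen by their labels out of a series of 55 VCaP and 57 LAPC4 libraries. Of 58684 genes in the count table, 19266 reached 10 reads in 4 or more VCaP libraries and were tested. The series profiled polyA RNA of 2 prostate cancer cell lines, VCaP and LAPC4, each given vehicle (DMSO), R1881, or R1881 with 500 nM or 2 µM darolutamide, for 8 or 22 h. R1881 is a synthetic androgen that resists metabolism, and darolutamide is an antiandrogen, a drug that blocks the response to such hormones. Every group, the DMSO controls included, was first deprived of steroid hormones by 2 days of culture on charcoal-stripped serum (10%). VCaP was derived from a vertebral metastasis of prostate cancer and carries the TMPRSS2-ERG fusion, so ERG RNA in these cells is read from an androgen-controlled promoter. All libraries of a line came from 1 established line, and the spread between them measures cultures and libraries of that line, not patients.

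Androgens act on transcription through response elements in DNA built from a hexamer half-site. In luminal prostate cells they raise the transcription of secretory, metabolic and chaperone genes and lower that of others. Antiandrogens such as darolutamide compete with the hormone. The question that this pair of groups answers is how much of an early androgen response was held back by the lower dose.

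The darolutamide libraries held 15973900 to 22326900 counted reads and the R1881 libraries 17330100 to 25125800. Luminal markers were abundant in all 14, with 9502 to 15737 ERG reads. Of the markers of other cells, KRT5 (basal), COL1A2 (stromal) and CD3E (T cells) were at 0 reads in every one. Other markers of these cells had few reads, 8 to 34 for COL1A1, 2 to 26 for the endothelial VWF, 2 to 21 for KRT15 and 0 to 10 for KRT14. The stromal marker LUM had 31 to 92. VWF was called higher with darolutamide by 1.26, and KRT15 was called lower at −1.29. The summed immune and endothelial level was 0.865 to 1.14 CPM (reads per 1e6 counted reads after TMM scaling) with darolutamide and 0.235 to 0.761 with R1881, and the summed basal level 0.335 to 1.05 and 0.412 to 1.26. CHGA, a neuroendocrine granule protein, was read 1579 to 3107 times. The summed level of the 5 stromal markers, most of it LUM, was 5.21 to 6.30 CPM with darolutamide and 2.43 to 4.86 with R1881. In the DMSO libraries at 8 h it was 23.7 to 31.0 CPM. LUM was lower with R1881 than with DMSO, and rose with darolutamide by 1.05 on the log2 scale. COL1A1, the next of these markers, had a difference of 0.04. The part of such cells in the other results was not tested. The TMM factors, which correct for library composition, were 1.00 to 1.01 with darolutamide and 0.933 to 0.981 with R1881, with no overlap. The slope of expression on gene GC content ran from −7.26 to −5.32 log2 CPM per unit of GC fraction with darolutamide and from −7.45 to −3.09 with R1881, and the darolutamide library of replicate 1 had the steepest slope of its group.

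In cells that received 500 nM darolutamide, 3026 genes were lower and 2871 were higher than with R1881 alone, 15.7% and 14.9% of those tested (edgeR's quasi-likelihood test, Benjamini-Hochberg adjusted p under 0.05). Together these were 5897 genes, or 30.6%. Most of these differences were small. The median absolute log2 fold change of the called genes was 0.35, and 553 genes, or 2.87%, also passed an absolute log2 fold change of 1, with 316 lower (1.64%) and 237 higher (1.23%). The balance between directions depended on the scaling. With upper-quartile scaling 3863 genes were called higher and 2341 lower, and the median log2 fold change over all genes moved from 0.003 to 0.051. All 4 darolutamide values lay outside the range of the 10 R1881 values for 3068 genes, or 15.9% of those tested.

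The largest falls among well expressed genes whose groups did not overlap were in genes that R1881 had raised. RASD1, a Ras-like protein that dexamethasone also raises, at chr17:17494437-17496395 (GRCh38, minus strand), stood at 3.01, 4.73, 3.82 and 5.13 CPM in the 4 darolutamide libraries and between 26.8 and 63.3 CPM, with a median of 38.3, in the 10 R1881 libraries. Its highest darolutamide value was far below the lowest R1881 value, and it fell by 3.21 on the log2 scale (SE 0.18, adjusted p = 1.17e-21). TIPARP, a mono-ADP-ribosyltransferase that restrains the aryl hydrocarbon receptor, stood at 64.4, 70.1, 62.0 and 73.0 CPM against 315 to 418 (median 374). It fell by 2.45 (SE 0.07, adjusted p = 3.28e-34), again with a wide gap between the groups. The adhesion receptor gene ADGRG2 fell by 2.50, the membrane repair gene MYOF by 2.31 and F3, which encodes tissue factor, by 2.31.

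VCL, which encodes the focal adhesion protein vinculin, measured 97.3, 102, 102 and 107 CPM with darolutamide. With R1881 alone it ranged from 380 to 486 CPM around a median of 437. The fall of 2.11 (SE 0.05, adjusted p = 2.08e-37) was the one with the smallest error among the 10 largest. ERRFI1, a feedback inhibitor of the EGF receptor, was one of the most abundant of these genes, at 199, 212, 199 and 216 CPM against 741 to 948 (median 826), and fell by 2.02 (SE 0.06). CDCA7L, a MYC-interacting nuclear protein, fell by 2.07 and the sulfotransferase gene CHST2 by 2.06. For these 9 genes the lack of overlap between the groups was a condition of the choice.

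The largest rises by the same rule were smaller and were all in genes that stood higher in DMSO than in R1881. TRIB1, a pseudokinase that directs C/EBP factors to degradation, stood at 175, 142, 149 and 141 CPM with darolutamide and at 31.3 to 50.9 (median 44.2) with R1881. It rose by 1.81 (SE 0.06, adjusted p = 7.89e-31), while the DMSO libraries stood far higher still, at 1185 to 1339 CPM. IGFBP3, a secreted binding protein for insulin-like growth factors, stood at 28, 28.1, 27.5 and 29.4 CPM against 9.88 to 12.6 (median 11.6) and rose by 1.32 (SE 0.08, adjusted p = 6.46e-21). Its 4 darolutamide values were close together, and the rule required them to lie outside the R1881 range. The natriuretic peptide clearance receptor gene NPR3 rose by 1.37, the bicarbonate transporter gene SLC4A4 by 1.28, the microtubule-associated ubiquitin ligase gene MID1 by 1.27 and ARG2, the mitochondrial arginase, by 1.25. POLR2M, whose transcripts overlap neighbouring genes, rose by 1.10, CRISPLD1 by 1.07, COLCA1 by 1.06 and the transmembrane gene TMEFF2 by 1.04. TMEFF2, at 188 to 202 CPM, was also above its DMSO range of 143 to 160.

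**Figure D1:**
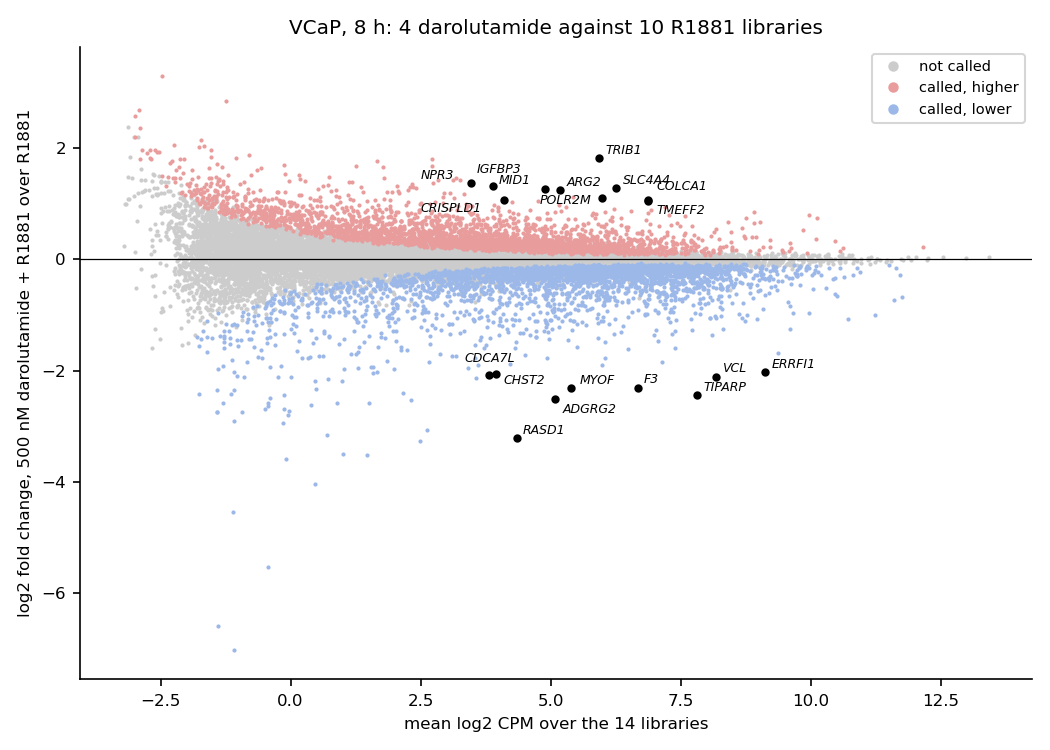
Log2 fold change of 500 nM darolutamide plus R1881 over R1881 (vertical axis) against mean log2 CPM over the 14 libraries (horizontal axis), 1 point per tested gene, coloured by call (Benjamini-Hochberg adjusted p under 0.05). The labelled genes are among the largest falls and rises above the median expression, with RASD1 at −3.21 and TRIB1 at 1.81, and larger changes lie among genes of low expression.

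Among 11 androgen-regulated or lineage genes chosen as landmarks, the androgen-induced ones ranged from a fall of 1 log2 unit in FKBP5 to a rise in PMEPA1. FKBP5, a co-chaperone of steroid receptors, at chr6:35573585-35728583 (minus strand), stood at 1461, 1485, 1435 and 1458 CPM with darolutamide and at 2691 to 3188 (median 2967) with R1881. It fell by 1.01 (SE 0.04, adjusted p = 3.92e-27), and the groups were far apart. NCAPD3, a subunit of condensin II, stood at 2123, 2147, 2158 and 2229 CPM against 3482 to 3781 (median 3620), and fell by 0.74 (SE 0.04, adjusted p = 9.57e-22). TMPRSS2, a membrane serine protease, stood at 432, 427, 445 and 429 CPM against 489 to 559 (median 536). It fell by 0.29 (SE 0.04, adjusted p = 2.44e-09) with no overlap. IGF1R, the receptor of insulin-like growth factor 1, stood at 762, 779, 788 and 772 CPM against 838 to 935 (median 900) and fell by 0.20 (SE 0.03, adjusted p = 1.24e-07).

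The kallikreins did not pass the test. KLK2 stood at 4800, 4799, 5168 and 4912 CPM with darolutamide, within or just above the R1881 range of 4602 to 5087 (median 4853). The log2 difference was 0.02 with a 95% interval from −0.05 to 0.09 (adjusted p = 0.763). KLK2 passed under 1 alternative, the replicate block with a GC slope, at 0.07 (adjusted p = 0.0219). KLK3, the gene of prostate-specific antigen, stood at 35.1, 38.3, 38.7 and 38.9 CPM, inside the R1881 range of 33.5 to 46.9 (median 37.6), with a log2 difference of −0.03 and an interval from −0.18 to 0.12 (adjusted p = 0.782). KLK3 stood far below KLK2, though above the median expression of the tested genes (3.41 log2 CPM). Both kallikreins were above their DMSO ranges, 2349 to 2706 CPM for KLK2 and 14.2 to 18.8 for KLK3. The 2 genes are close paralogs, and how reads shared between them were counted was not given.

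ERG, read from the fusion, stood at 595, 582, 581 and 572 CPM against 562 to 727 (median 616). The groups overlapped, and the difference of −0.12 (SE 0.04, adjusted p = 0.0108) did not pass with upper-quartile scaling (adjusted p = 0.12) or against R1881 replicates 1 to 5 alone (adjusted p = 0.147). Over the alternatives that did not call it, its adjusted p ran up to 0.565. PMEPA1, an inhibitor of TGF-β signalling, and ACPP, prostatic acid phosphatase, rose, but R1881 had raised PMEPA1 and lowered ACPP. In DMSO the mean of PMEPA1 was 642 CPM. PMEPA1 stood at 1326, 1309, 1310 and 1350 CPM, above all R1881 libraries at 980 to 1087 (median 1024), and rose by 0.36 (SE 0.03, adjusted p = 2.06e-17).

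ACPP stood at 5459, 5017, 5054 and 5057 CPM against 3851 to 4812 (median 4433) and rose by 0.22 (SE 0.04, adjusted p = 6.8e-05). Its mean was 5889 CPM in DMSO and 4424 with R1881, so this rise was toward the DMSO level. FOXA1, a pioneer factor that opens chromatin, stood at 700, 707, 722 and 706 CPM against 513 to 614 (median 564) and rose by 0.34 (SE 0.03, adjusted p = 6.75e-13). R1881 had lowered FOXA1 too, from a mean of 669 CPM in DMSO to 561. HOXB13, another lineage factor, overlapped between the groups, with 153, 173, 183 and 170 CPM against 128 to 188 (median 150). Its log2 difference was 0.15 with an interval from −0.02 to 0.31 (adjusted p = 0.187). It passed only in the fits with a GC slope, with adjusted p = 3.03e-09 in the one over all libraries.

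**Figure D2:**
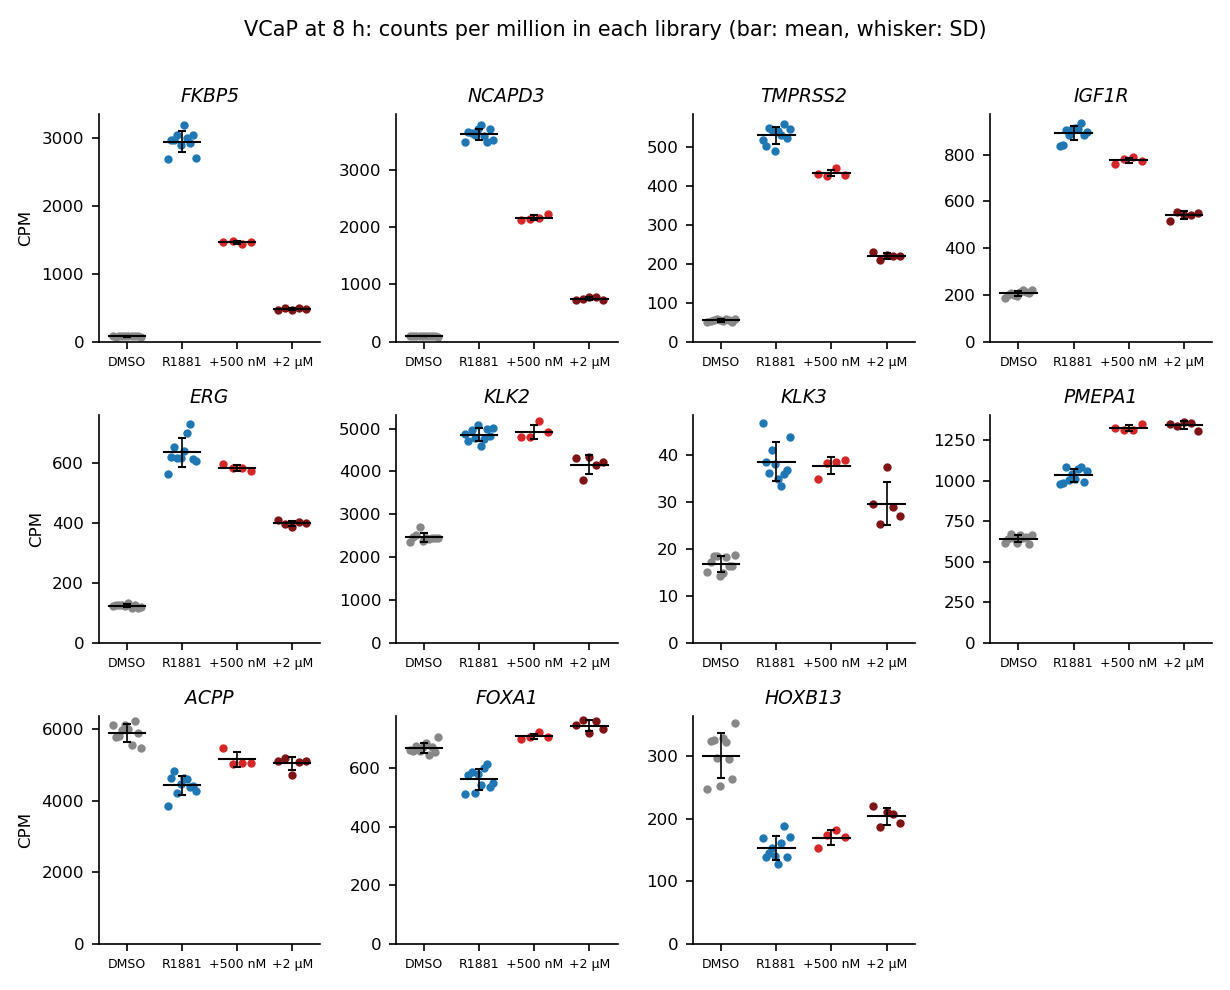
CPM of 11 genes in each VCaP library at 8 h (points) for DMSO (10), R1881 (10), R1881 with 500 nM (4) and R1881 with 2 µM darolutamide (5), with the mean (bar) and SD (whisker). FKBP5 and NCAPD3 step down from R1881 to 500 nM to 2 µM, KLK2 and KLK3 at 500 nM lie with the R1881 libraries, and PMEPA1 lies above them.

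The promoters of FKBP5, NCAPD3 and IGF1R, the landmark genes with the largest falls that had an entry in the RefSeq promoter table (GRCh38.p14), are printed beside that of KLK3, which did not pass the test and was added after its values were seen. Each line gives the 250 bases before the RefSeq start, 5′ to 3′ on the gene's strand. Capitals mark the half-site AGAACA where it was found on either strand.
FKBP5 (chr6:35728584-35728833, minus strand): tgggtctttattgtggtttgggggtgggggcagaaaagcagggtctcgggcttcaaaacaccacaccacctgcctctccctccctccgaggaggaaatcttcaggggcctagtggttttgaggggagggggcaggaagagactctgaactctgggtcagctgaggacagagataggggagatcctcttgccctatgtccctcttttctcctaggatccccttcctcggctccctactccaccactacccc
NCAPD3 (chr11:134225462-134225711, minus strand): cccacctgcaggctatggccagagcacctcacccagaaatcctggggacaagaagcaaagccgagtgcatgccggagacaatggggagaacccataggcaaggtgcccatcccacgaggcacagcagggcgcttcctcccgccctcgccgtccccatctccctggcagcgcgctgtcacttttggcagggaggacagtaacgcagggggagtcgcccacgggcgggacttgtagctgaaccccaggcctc
IGF1R (chr15:98648289-98648538, plus strand): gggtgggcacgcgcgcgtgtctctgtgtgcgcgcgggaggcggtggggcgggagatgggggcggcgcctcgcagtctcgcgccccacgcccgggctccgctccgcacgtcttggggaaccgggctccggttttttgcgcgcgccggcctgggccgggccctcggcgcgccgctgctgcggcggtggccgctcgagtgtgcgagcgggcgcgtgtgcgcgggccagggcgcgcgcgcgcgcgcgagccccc
KLK3 (chr19:50854665-50854914, plus strand): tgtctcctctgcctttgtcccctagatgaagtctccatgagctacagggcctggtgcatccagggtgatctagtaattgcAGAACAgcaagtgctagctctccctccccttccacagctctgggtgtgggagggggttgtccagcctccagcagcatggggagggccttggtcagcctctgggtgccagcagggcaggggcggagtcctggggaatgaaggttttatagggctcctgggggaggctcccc

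Of the 4 windows, KLK3's held the half-site once, beginning at base 81, and the others held none. Among 35116 RefSeq promoters, 12.4% held AGAACA on either strand, and 1 (0.00285%) held the full palindrome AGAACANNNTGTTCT, which contains the half-site on both strands. The half-site was in 6.65% of 2105 promoters of genes that fell, 7.98% of 2006 of genes that rose and 7.36% of 11339 of all tested genes that had a promoter entry. It was in 0 of 9 available promoters of the 10 largest falls and 1 of 8 of the 10 largest rises. Androgen response elements are known to lie largely in distant enhancers, which these windows do not cover.

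Among genes grouped by function, the androgen-induced list was split. Of 51 members, 30 fell, 12 rose and 9 did not pass, with a median log2 fold change of −0.18. The counts of this list and of those that follow stand beside 15.7% of all tested genes that fell, 14.9% that rose and a median of 0.003. LRIG1, a negative regulator of receptor tyrosine kinases, was at 129, 145, 146 and 140 CPM against 331 to 399 (median 357) and fell by 1.36 (SE 0.04, adjusted p = 4.18e-33). RHOU, an atypical small GTPase, was at 495, 517, 480 and 512 CPM against 893 to 1079 (median 977) and fell by 0.98 (SE 0.04, adjusted p = 3.58e-27). Both stood between their R1881 and DMSO ranges. By the roles given to the members in the list, 6 of 9 signalling genes fell and 2 rose, and NDRG1, TPD52 and SGK1 fell by 0.68, 0.62 and 1.77. Of 10 metabolic genes 7 fell, ACSL3, MBOAT2 and ALDH1A3 among them, and 1, UAP1, rose. Of 10 membrane proteins 5 fell and 4, TRPM8, SLC45A3, STEAP1 and STEAP2, rose. Of 10 transcription factors 5 fell and 2, ELK4 and ZBTB10, rose.

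The androgen-repressed list moved mostly the other way, with 13 of 22 members higher, 1 lower and 8 not passing, and a median of 0.60. WNT2, a secreted ligand, was at 17.5, 17.3, 13.6 and 15.2 CPM against 3.93 to 5.35 (median 4.40) and rose by 1.80 (SE 0.08, adjusted p = 2.18e-26). MYC, the growth-promoting transcription factor, rose by 0.84, and MET, the receptor of hepatocyte growth factor, by 1.52 from levels near 1 CPM. The member that fell was UGT2B11, one of the steroid-conjugating UGT2B enzymes, whose near-identical sequences make its count uncertain. At 8 h R1881 lowered 19 of the 22 members and raised 3, UGT2B11 among them. With 500 nM darolutamide 42.7% of the UGT2B11 rise in mean CPM was left (2.79% to 70.9% over the 4 libraries).

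The list of genes that glucocorticoids and androgens share had 11 of 20 tested members lower, 1 higher and 8 not passing, with a median of −0.51. It was uneven. RASD1, ERRFI1 and SGK1 fell by more than 1 log2 unit, as did PDK4, a kinase that restrains pyruvate oxidation, at 0.376, 0.193, 0.498 and 0.265 CPM against 3.14 to 4.47 (median 3.75). FOXO3, a transcription factor inhibited by AKT, fell by 0.58 (SE 0.02, adjusted p = 4.48e-27). The metallothioneins MT2A, MT1X and MT1E did not pass and did not rise with R1881 in mean CPM either, and TSC22D3 rose by 0.36.

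In the unfolded protein response, which senses misfolded protein in the endoplasmic reticulum, 27 of 31 genes fell, none rose and 4 did not pass, with a median of −0.51. The chaperone HSPA5 was at 960, 939, 999.9 and 999 CPM against 1248 to 1490 (median 1391) and fell by 0.51 (SE 0.04, adjusted p = 1.03e-16). CREB3L2, a membrane-bound transcription factor, fell by 1.06 (SE 0.04, adjusted p = 7.89e-31), the sensor ERN1 by 0.87 and the translocon subunit SEC61A1 by 0.71. SEL1L, ATF6, ASNS and SDF2L1 did not pass, with log2 differences of −0.04, −0.09, −0.04 and −0.40.

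In lipid metabolism the falls were partial. Of 24 tested cholesterol synthesis and uptake genes, 11 fell, none rose and 13 did not pass (median −0.21). IDI1, the isopentenyl diphosphate isomerase, was at 130, 128, 119 and 136 CPM against 190 to 240 (median 217) and fell by 0.74 (SE 0.06, adjusted p = 6.86e-17). NSDHL fell by 0.70 and FDFT1, squalene synthase, by 0.31. Of 20 fatty acid genes, 9 fell and 3 rose (median −0.14). The acyl-CoA synthetases ACSL1 and ACSL3 fell by 0.95 and 0.66, and the fatty acid binding protein FABP5 rose by 0.75.

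In the PI3K-AKT-mTOR list 10 of 29 genes fell and 6 rose (median −0.13), beside 15.7% and 14.9% of all tested genes. IRS2, an insulin receptor substrate, fell by 0.40, and SGK1, FOXO3 and FOXO1 fell in this list too, while INPP4B, a phosphatase that opposes the pathway, and DEPTOR, an mTOR inhibitor, rose by 0.69 and 0.43. Of 19 tested lineage factors and cofactors, 8 fell and 1, FOXA1, rose. With a GC slope as covariate 12 fell and 3 rose, and with the replicate block 2 fell and 1 rose. GRHL2, an epithelial factor, fell by 0.31 and the coactivator CREBBP by 0.28. SPDEF, an epithelial ETS factor, was at 197, 307, 298 and 315 CPM against 334 to 869 (median 505) and fell by 1.00 with a larger error (SE 0.25, adjusted p = 0.00101). The keratin genes KRT8 and KRT18 of luminal cells fell by 1.25 and 1.08. In both, as in SPDEF, the darolutamide library of replicate 1, the one with the steepest GC slope, was the lowest, and without it the log2 fold changes were −1.17 and −1.02.

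DNA replication genes were slightly higher, with 13 of 22 risen, none fallen and a median of 0.19. In replicates 1 to 4 of both groups 7 were called, and 5 with the replicate block. MCM4 of the replicative helicase was at 224, 207, 214 and 211 CPM against 167 to 186 (median 176) and rose by 0.28 (SE 0.03, adjusted p = 3.89e-11), and MCM3 and MCM6 rose by 0.33 and 0.30. Mitosis genes were near 0 as a list (3 of 19 rose, 2 fell, median 0.04), with rises near and falls below the shares over all genes. In it the kinesin KIF20A fell by 0.33 and the checkpoint kinase BUB1B rose by 0.27. In the list of ERK feedback and immediate early genes, 3 of 19 rose, 5 fell and 11 did not pass (median −0.28), the rises again close to the share over all genes. SPRY4, an inhibitor of ERK signalling, was at 1.19, 1.25, 1.49 and 1.24 CPM against 0.0448 to 0.323 (median 0.175) and rose by 2.84 from very few reads (SE 0.32, adjusted p = 8.65e-11). SPRY1 rose by 0.92 and SPRED1 fell by 0.62.

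Of 6 tested targets of the aryl hydrocarbon receptor, 3 fell and 2 rose. CYP1A1, a xenobiotic-metabolizing enzyme, was at 4.20, 5.64, 4.71 and 4.78 CPM against 14 to 19.3 (median 16.8) and fell by 1.78 (SE 0.14, adjusted p = 2.32e-16), whereas CYP1B1 was at 26.4, 23.1, 21.9 and 23.7 CPM against 12.2 to 16.3 (median 14.8) and rose by 0.69 (SE 0.08, adjusted p = 5.88e-11). None of the 13 mitochondrially encoded genes passed. Of 9 reference genes, ACTB and HPRT1 fell by 0.34 and 0.22 and 7, including GAPDH at −0.07, did not pass. ACTB did not pass in a fit with the replicate number as a block (adjusted p = 0.127).

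**Figure D3:**
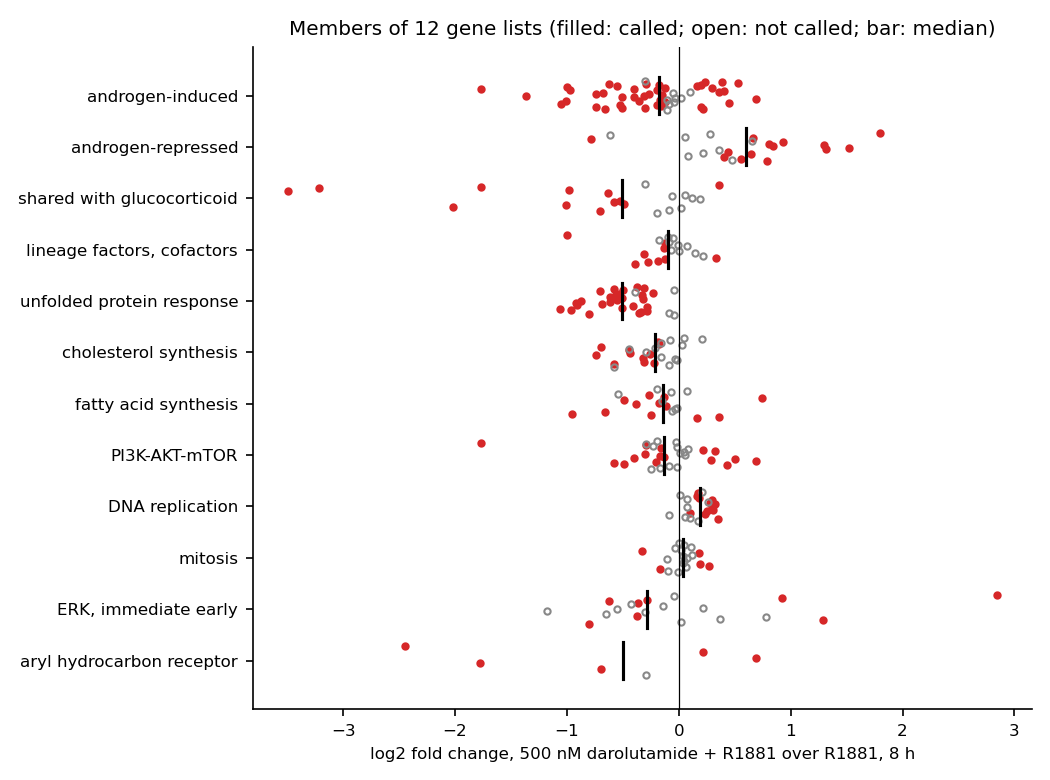
Log2 fold change of 500 nM darolutamide plus R1881 over R1881 at 8 h for the tested members of 12 gene lists, 1 point per gene, filled where called and open where not, with the list median as a bar. The androgen-repressed list (median 0.60) and the unfolded protein response list (median −0.51) lie mostly on opposite sides of 0, and the androgen-induced list spans both.

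To set the darolutamide differences against the androgen response without sharing libraries, R1881 replicates 6 to 10 were compared with DMSO replicates 6 to 10, and darolutamide with R1881 replicates 1 to 5. The first comparison called 11242 genes (58.4%) and the second 5058 (26.3%). Between these sets of R1881 replicates (1 to 5 and 6 to 10) no gene was called by edgeR's quasi-likelihood test. In that test 1476 of 19266 genes had an unadjusted p under 0.05. That is more than the share of 0.05 that no difference would give, so the sets were not shown to be alike. Of 5616 genes that had risen with R1881, 2476 fell with darolutamide (44.1%) and 117 rose (2.08%), where 13.8% of all genes fell and 12.5% rose. Of 5626 that had fallen with R1881, 2009 rose (35.7%) and 29 fell (0.515%). Of 8024 not called for R1881, 145 fell and 282 rose.

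The share of induced genes that was called lower with darolutamide grew with the size of the androgen response. It was 67.4% of the genes that R1881 raised by 1 to 2 log2 units, 75.9% at 2 to 3 and 81.0% above 3. For repressed genes the share called higher was 43.1%, 56.7% and 48.6%. Such shares depend on how readily a change is called and do not give the part of the response removed. For genes raised by 1 to 2 and by 2 to 3, the median R1881 changes were 1.31 and 2.36. Their median darolutamide changes were −0.48 and −0.85. Among the 179 genes raised by more than 3, the median R1881 change was 4.02 and the median darolutamide change −1.18, with quartiles at −1.93 and −0.68. Among the 138 genes lowered by more than 3, the medians were −3.69 and 1.28.

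**Figure D4:**
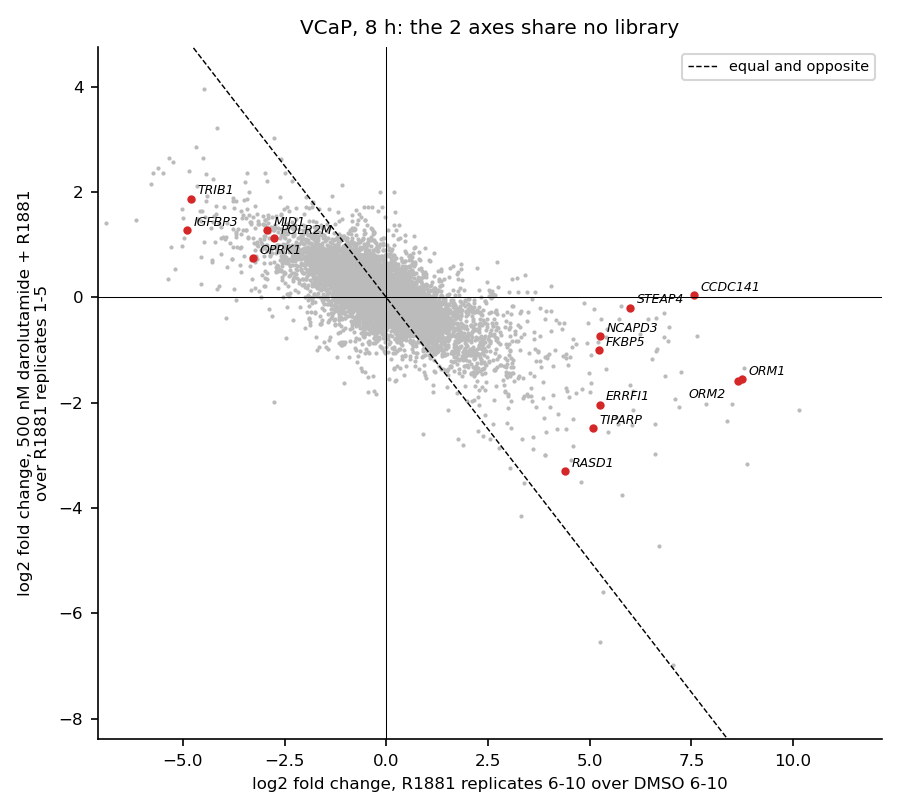
Log2 fold change of 500 nM darolutamide plus R1881 over R1881 replicates 1 to 5 (vertical axis) against that of R1881 over DMSO in replicates 6 to 10 (horizontal axis), 1 point per tested gene, with no library used on both axes and a dashed line where the values are equal and opposite. Most strongly induced genes lie below 0 and above the dashed line, with RASD1 nearest to that line among the labelled induced genes and CCDC141 and STEAP4 near 0.

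The named genes that R1881 raised differed widely in what darolutamide left. Their R1881 rises were of unlike size, such as 2.36 log2 units for ERG and 5.21 for FKBP5. RASD1, VCL, TIPARP and ERRFI1 were picked for their large falls with darolutamide, so a small part left follows from that choice. As a description, the part of the difference in mean CPM between DMSO and R1881 that remained at 500 nM was 6.76% for RASD1 (3.66% to 9.32% over the 4 libraries), 12.2% for VCL (10.9% to 13.5%), 15.8% for TIPARP (14.3% to 17.4%) and 22.5% for ERRFI1 (21.5% to 23.6%). About the middle were FKBP5 with 48.3% (47.4% to 49.1%) and NCAPD3 with 58.8% (57.6% to 60.6%). It was 79.6% for TMPRSS2, 83.0% for IGF1R and 90% for ERG. STEAP4, a metalloreductase gene that stood at 4.98 to 6.80 CPM in DMSO and at 337 to 435 in R1881, kept 88.3% (85.9% to 92.7%).

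CCDC141, one of the 5 well expressed genes most raised by R1881, was at 34.1, 35.2, 31.9 and 33.8 CPM against 27.6 to 38.1 (median 32.5), with 103% of its increment left. ORM1 and ORM2, near-identical genes of an acute-phase plasma protein whose reads may be split between them, were also among the most raised and kept 32.9% and 33.5%. CDCA7L was past its starting point, at 5.07, 5.84, 4.54 and 4.65 CPM against 5.80 to 8.50 in DMSO (log2 difference from DMSO −0.52, adjusted p = 3.79e-05). Over all tested genes, 8658 (44.9%) were called between 500 nM darolutamide and DMSO.

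Among the named repressed genes, IGFBP3 kept 94.6% of its R1881 decrease in mean CPM, OPRK1, the kappa opioid receptor gene, 91.1%, TRIB1 90.8% and MID1 78.7%. NPR3 and ARG2 kept 61.3% and 57.7%, and SLC4A4 36.5%. On this linear scale a strongly lowered gene can rise by several fold and still keep most of its decrease. TRIB1, which led the rises listed above, is an example. These percentages are therefore not comparable with those of the induced genes.

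The 117 genes that R1881 raised and that rose further when darolutamide was added were set apart by these same comparisons, and 5 of them did not pass against all 10 R1881 libraries. TRPM8, a cold-sensing cation channel of prostate epithelium, was at 1266, 1178, 1198 and 1186 CPM, above the R1881 range of 729 to 927 (median 830), which was itself above the DMSO range of 422 to 473. It rose by 0.52 with darolutamide (SE 0.05, adjusted p = 1.34e-14). CYP1B1 and PMEPA1 showed the same order of the 3 groups. With 2 µM darolutamide the levels of these 3 genes were 1125 to 1243 CPM for TRPM8, 18.9 to 24.5 for CYP1B1 and 1303 to 1360 for PMEPA1, and the tests between the doses did not pass (adjusted p = 0.75, 0.324 and 0.776). At that dose 15 of the 117 had a mean CPM below that with R1881. Other members, named after their values were seen, were the glucose transporter gene SLC2A12 (mean 45.9 CPM with darolutamide, 29.9 with R1881 and 15.5 with DMSO), the deacetylase gene HDAC9 (35.1, 23.1 and 19.5 CPM) and the ETS factor gene ELK4 (152, 111 and 91.0 CPM). Of the 29 genes that fell with R1881 and fell further, 4 did not pass against all 10 R1881 libraries. Among the 29, also named after their values were seen, PRSS23 stood at means of 14.7, 22.5 and 33.9 CPM and EPHA4 at 19.9, 28.3 and 41.5.

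Between 2 µM and 500 nM, 1936 genes were lower (10.0%) and 1450 higher (7.53%) at the higher dose, together 17.6% of those tested. The androgen-induced list had 34 of 51 members lower at 2 µM and 1 higher, and the androgen-repressed list 14 of 22 higher and 1 lower. FKBP5 fell by a further 1.61 (SE 0.05, adjusted p = 3.53e-34), from the values above to 459 to 496 CPM (median 480) in 5 libraries. NCAPD3 fell by 1.53, TMPRSS2 by 0.98, ERG by 0.55 and IGF1R by 0.52.

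The kallikreins were lower at 2 µM than at 500 nM, KLK2 by 0.24 (SE 0.04, adjusted p = 4.41e-06) and KLK3 by 0.34 (SE 0.09, adjusted p = 0.00195). Among the largest dose differences, RDH10, a retinol dehydrogenase gene, fell by 2.84 and ORM1 fell by 2.22. IGFBP3, TRIB1 and OPRK1 rose by 1.52, 1.48 and 1.31. RDH10 was at 285, 300, 274 and 293 CPM with 500 nM, at 726 to 1076 with R1881 and at 37.8 to 44.1 with 2 µM. CDCA7L (adjusted p = 0.661), ACPP (0.789) and FOXA1 (0.209) did not pass between doses.

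Set against R1881 replicates that the other dose did not use, 500 nM called 5058 genes and 2 µM 9424 (48.9%). They shared 4622, which was 91.4% of the first list and 49.0% of the second, and 4616 of the shared genes had the same direction.

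By 22 h the same dose had a different pattern. The 22 h groups held 4 libraries with 500 nM darolutamide and 9 with R1881, and 10219 genes (53.0%) were called between them. Of the 5897 genes called at 8 h, 4309 were called at 22 h, 73.1% of the 8 h list and 42.2% of the 22 h list. Among these 4309, 3677 kept their direction and 632 had the opposite one. The test of the difference between the times called 6680 genes (34.7%), 3528 (18.3%) with a higher and 3152 (16.4%) with a lower log2 fold change at 22 h.

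Androgen-induced landmark genes had lower fold changes of darolutamide over R1881 at 22 h than at 8 h. The level with R1881 could differ between the times too, as for KLK3, which was higher at 22 h. How much of the androgen response was left at 22 h was not tested. FKBP5 stood at 476 to 548 CPM (median 528) with darolutamide at 22 h against 3031 to 3579 (median 3273) with R1881, a difference of −2.65 that was 1.64 lower than at 8 h (SE 0.06, adjusted p = 1.87e-29). KLK3 was at 62.2 to 74.6 CPM against 177 to 204, so that a difference that did not pass at 8 h was −1.53 at 22 h (difference between times −1.50, adjusted p = 1.12e-17). KLK2, TMPRSS2 and NCAPD3 also had lower fold changes at 22 h, by 0.65, 1.35 and 1.17. ACPP, which R1881 had lowered at 8 h, was at 10238 to 12275 CPM with R1881 at 22 h and at 7751 to 8208 with darolutamide, and its change moved from 0.22 to −0.46. Of the androgen-induced list, 40 of 51 members had a lower and 3 a higher fold change at 22 h.

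All 22 DNA replication genes and all 19 mitosis genes had a higher fold change at 22 h than at 8 h, with median differences of 0.95 and 0.77, where 18.3% of all genes were called in that direction. MCM4 was at 486 to 506 CPM with darolutamide at 22 h against 182 to 204 with R1881, a log2 difference of 1.38, or 1.10 above that at 8 h (SE 0.04, adjusted p = 1.79e-27). KIF20A, lower with darolutamide at 8 h, was higher at 22 h by 0.71, at 150 to 155 CPM against 83.9 to 102.

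Among the genes with the largest differences between the times were CDCA7L, OSBPL6 and LRRC4 in one direction and ORM1 and ORM2 in the other. CDCA7L changed sign. It was at 5.18 to 7.15 CPM with darolutamide at 22 h and at 0.999 to 1.73 with R1881, whose level had been 17.3 to 23.9 at 8 h, so its change went from −2.07 to 2.12 (difference 4.19, SE 0.16, adjusted p = 1.55e-28). OSBPL6, a sterol-binding protein gene, went from −1.73 to 0.82, and LRRC4 from −0.57 to 1.91.

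**Figure D5:**
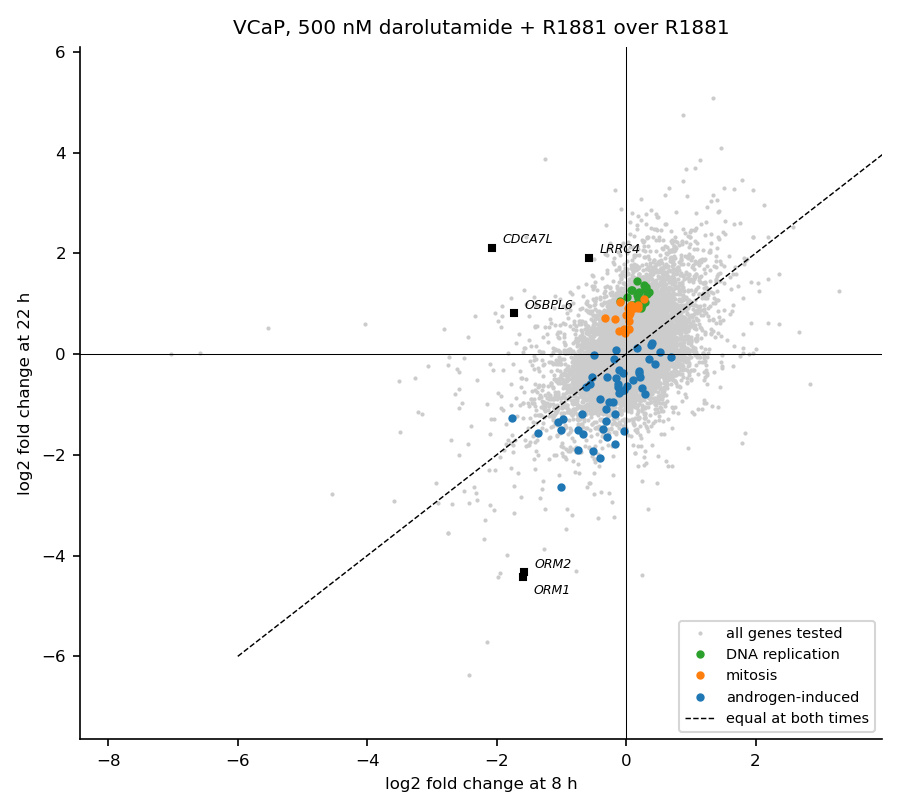
Log2 fold change of 500 nM darolutamide plus R1881 over R1881 at 22 h (vertical axis) against 8 h (horizontal axis) in VCaP, 1 point per tested gene, with a dashed line where both are equal. All DNA replication and mitosis genes lie above the line, most androgen-induced genes lie below it, and CDCA7L moves from −2.07 to 2.12.

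In LAPC4, another androgen-responsive prostate cancer line, the same dose and time called 69 of 16578 genes tested in both lines (0.416%), 65 lower (0.392%) and 4 higher (0.0241%), from 5 darolutamide and 10 R1881 libraries. Of the 5165 genes called in VCaP over these same 16578, 52 were also called in LAPC4, and 27 of them shared the direction. These 52 were 1.01% of the VCaP list and 75.4% of the LAPC4 list. How R1881 itself moved genes in LAPC4 was not tested here, and the study reports fewer R1881-regulated genes in LAPC4 than in VCaP. The test of the difference between the lines called 3387 genes (20.4%). The kallikreins were on the other side of it. KLK2 was at 3.67 to 4.29 CPM with darolutamide in LAPC4 against 8.30 to 15 with R1881, a difference of −1.38 where VCaP had 0.02 (difference between lines 1.41, SE 0.12, adjusted p = 3.53e-19).

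KLK3 differed in the same way, by −0.89 in LAPC4 (difference between lines 0.88, adjusted p = 1.7e-10). PMEPA1 fell in LAPC4, at 43.8 to 49.7 CPM against 52.2 to 57.8, and rose in VCaP (difference 0.63, SE 0.04, adjusted p = 5.11e-28). FKBP5 fell in both, by 0.43 in LAPC4 and by more in VCaP (difference −0.56, adjusted p = 1.29e-11). CHRNA2, a nicotinic receptor subunit, fell by 1.79 in LAPC4 at levels of 0.659 to 1.60 CPM against 2.80 to 5.07, and did not pass in VCaP at −0.11 (adjusted p = 0.344). RASD1, TIPARP, MYOF and TRIB1, which led in VCaP, did not pass in LAPC4. TIPARP there was at 62.8 to 73.4 CPM with darolutamide and 58.1 to 67.7 with R1881, and MYOF at 244 to 264 and 223 to 260.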

How the data were processed

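PolyA RNA was sequenced from TruSeq Stranded mRNA libraries as single reads of 50 cycles. The authors deposited raw read counts per gene, and their notes name bcl2fastq 2.17, STAR, featureCounts of Subread, DESeq2 and GRCh38. The annotation, the strand setting and the other versions were not given in the sources used here. The study describes 5 biological replicates per condition, while the groups compared held 4 and 10 libraries. No 2 of these libraries agreed within sampling noise, and nothing else says how the cultures were separated, so p-values measure the spread between these libraries.

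The filter kept genes that reached 10 reads in 4 or more VCaP libraries. Counts were scaled by TMM and fitted for 8 groups (55 libraries) with the quasi-likelihood test of edgeR 4.0.16 in R 4.3.3, two-sided. Genes were called at a Benjamini-Hochberg adjusted p under 0.05. Log2 CPM values used a prior count of 2, and fold changes came from the fit with the default setting of edgeR. The line contrast came from 1 fit over both lines. CPM are reads per 1e6 counted reads after TMM scaling. Intervals are 95% from the fit. DESeq2 1.42.0, upper-quartile scaling, other filters, a GC slope, a replicate block, subsets of the controls and leaving out single libraries (of the controls only in the comparisons that split them) were alternatives, and the code was tested on simulated data.

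The members and gene lists were chosen with earlier results of these data known. Named were the 10 largest falls and rises above the median expression without overlap, 11 landmark genes, the 3 members with the smallest adjusted p in each list, the 5 largest rises and falls with R1881 and the 3 largest dose, time and line differences in each direction. Some genes that the rule names are not reported here. Other list members and those said to be were named after their values were seen. Positions are from GENCODE 44 on GRCh38. Of 58684 symbols 35431 matched it, and 11339 tested genes matched the RefSeq promoter table, in which TMPRSS2 was not found.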

Additional observations from a re-analysis of the deposited data

Results flagged for a closer look

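Of 70 groups of 4 or 10 libraries examined, 4 held a library far from its neighbours, where chance gives about 1 in 20. In the R1881 group, replicate 3 was lowest for MYOF, at 56.6 CPM with the next at 63.2. In the darolutamide group, replicate 1 was the one apart in each case. It was highest for SLC4A4, at 163 CPM with the next at 141, lowest for KLK3, at 35.1 CPM with the next at 38.3, and highest for ACPP, at 5460 CPM with the next at 5060.

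The effect of 500 nM darolutamide differed between 22 h and 8 h, by the test of the difference itself, for 6680 genes. Among the genes named, the log2 difference (22 h minus 8 h) was −0.65 for KLK2, −1.50 for KLK3, −1.35 for TMPRSS2, −1.64 for FKBP5, −0.68 for ACPP and −0.45 for PMEPA1. It was −0.47 for IGF1R, −1.17 for NCAPD3, −0.53 for ERG, −0.51 for FOXA1 and −0.64 for HOXB13. It was 4.19 for CDCA7L, 2.55 for OSBPL6 and 2.48 for LRRC4, and −2.84 for ORM1 and −2.76 for ORM2.

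The effect at 8 h differed between the lines, again by the test of the difference, for 3387 genes. The log2 difference (VCaP minus LAPC4) was 1.41 for KLK2, 0.88 for KLK3, −0.12 for TMPRSS2, −0.56 for FKBP5, 0.63 for PMEPA1, −0.71 for NCAPD3 and 0.31 for FOXA1. It was 2.12 for TRGC2, which overlaps other T cell receptor gamma sequences and was near 0 in LAPC4, 1.79 for TRIB1 and 1.70 for CHRNA2, and −3.29 for RASD1, −2.54 for TIPARP and −2.41 for MYOF.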

How the results depend on the processing

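Across the alternatives the count of genes called between 500 nM darolutamide and R1881 stayed within 1.5 times the reported 5897, except with the replicate number as a block in replicates 1 to 4, which called 2564 genes (1266 up, 1298 down) and 107 in place of 164 list members. It called 10 members of the PI3K-AKT-mTOR list, 6 of the fatty acid list, 4 of the ERK list, 3 targets of the aryl hydrocarbon receptor and 1 mitosis gene. The same libraries without the block, added after seeing the data, gave 4114. Same-numbered deviations correlated at −0.364, −0.0528, −0.0953 and 0.0316, and the darolutamide replicates were most like R1881 replicates 6, 1, 1 and 1. These values gave no sign of pairing by number. They cannot exclude it, since differences in GC slope between libraries could mask shared effects. The main axis of variation among the VCaP libraries at 8 h closely followed that slope. With the block the dose comparison called 2363 genes and that with DMSO 9441. A GC slope as covariate gave 7656 genes, and the block with it 6663. MT-ND1, not called in the reported fit at −0.11, was 0.0882 there (adjusted p = 0.00677). Without a filter the line contrast called 1059 up and 2079 down, in place of 1628 and 1759.

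Leaving out 1 darolutamide library at a time gave 5063 to 5229 genes (521 to 577 above a log2 change of 1), 2883 to 3256 for the dose, 6025 to 6397 for the time, 7833 to 8065 against DMSO and 2966 to 3366 for the line, where those of the other dose, time and line were left out as an addition after seeing the data. No single R1881 or DMSO library was left out of these comparisons. Among single genes, 28 values lost their call, 7 gained one and 1 reversed. ERG, STEAP4, BIRC5, ENO2 and KRT15 each lost theirs under at least 3 alternatives, and IGF1R (adjusted p = 0.0791), ACTB, BUB1B and SYP under the block. The causes were not tested. Genes near 1 CPM, such as SPRY4 and MET, rest on few reads.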
